A study of Mus musculus with 6 samples.

Results

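The genes *Myc*, *Mycn*, *Max*, *Mxi1*, *Mxd1*, *Mxd3*, *Mxd4*, *Mnt*, *Mga* and *Mlx*, which encode 10 members of the MYC and MXD transcription factor network, were followed in mouse splenic B cells switching to IgA with or without HIF-1α. The genes were taken by symbol from a fixed list, 10 of the 46983 gene identifiers in the deposited table, by a rule that uses no measured value, although the list was drawn up with earlier results of these data known. Total RNA was sequenced from 3 WT and 3 *Hif1a* KO cultures, in which splenic B cells had been pushed towards IgA class switching for 3 days by LPS (5 μg/ml) together with the cytokines TGF-β, IL-5 and BAFF (each 10 ng/ml). The study's methods state that follicular B cells were sorted on CD21 and CD23 before culture, a gate that would remove myeloid cells, while the labels name splenic B cells only. By the same methods, the KO mice carried floxed *Hif1a* alleles deleted by an Mb1-cre driver, which acts throughout the B lineage. WT mice were littermates that either lacked the cre or kept a functional *Hif1a* allele. Which of these genotypes each WT library came from, the age of the mice, and whether the 3 libraries of a group came from separate mice are not given in the sources used here, so p-values measure the spread between these libraries, which may be technical. Values are FPKM, fragments scaled by gene length and by the total counted, and the libraries held 25030210 to 37222477 counted fragments.

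WT replicate 1 stood apart from the other WT libraries, so differences are also given without it. It was singled out on these same data. For genes such as *Myc* it lay with the KO libraries, so leaving it out widens the difference. Calls and p-values without it are therefore descriptive and not independent evidence. With all 6 libraries, 0 of 13312 genes tested were called at a Benjamini-Hochberg adjusted p under 0.05 in limma, 929 genes had an unadjusted p under 0.05, and limma's voom method on recovered reads also called 0. Without WT replicate 1, 1251 genes were called, while leaving out any other single library called 0 or 1. The 8 neutrophil markers summed to 38.0 FPKM in WT replicate 1 and to at most 0.62 FPKM in the other 5 libraries. The 7 B-cell markers used, including *Cd79a* and *Ms4a1*, were present in every library and summed to between 2230 and 3165 FPKM. Gene-level FPKM of *Hif1a* does not test the deletion, because it covers the whole transcript and not only the floxed part. *Hif1a* stood at 36.5, 49.8 and 45.8 FPKM in WT and at 46.5, 45.6 and 52.8 FPKM in KO.

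MYC and its relative N-MYC activate genes as dimers with MAX, a small partner that also dimerizes with the MXD proteins, MNT and MGA. MXD1, MXI1, MXD3, MXD4 and MNT recruit SIN3 corepressors and repress many of the genes that MYC activates, so the proteins of the network compete for MAX and for the same DNA element. MLX is a second partner, which dimerizes with MondoA (encoded by *Mlxip*) and with some of the repressors. In activated B cells MYC is known for driving cell growth, ribosome production and division, and MXD proteins and MNT are linked to leaving that state.

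The element shared by these dimers is the E-box CACGTG, and the core of the element bound by HIF-1 is ACGTG or GCGTG, the first of which lies inside the E-box. RefSeq promoter windows of GRCm38.p6, from 250 bases before to 50 bases after each start site, were matched for 9 of the 10 genes (11 windows), and *Myc* had no entry. The windows of *Max*, *Mxd4*, *Mnt* and *Mlx* held an E-box, against 7.15% of 32851 windows of all genes, on either strand. The E-box of each is shown with 12 bases on either side, 5′ to 3′ on the strand of the gene, because these are the letters that MAX or MLX dimers are known to read. Capitals mark the E-box. The windows lie at chr12:76962234-76962263 on the minus strand for *Max*, chr5:34187912-34187941 on the minus strand for *Mxd4*, chr11:74830789-74830818 on the plus strand for *Mnt* and chr11:101087238-101087267 on the plus strand for *Mlx*.
Max: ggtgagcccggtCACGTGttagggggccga
Mxd4: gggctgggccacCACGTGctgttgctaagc
Mnt: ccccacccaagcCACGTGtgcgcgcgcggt
Mlx: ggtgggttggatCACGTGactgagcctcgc
The E-box began 3 bases before the RefSeq start site in *Max*, 219 before it in *Mxd4*, 123 before it in *Mnt* and 40 before it in *Mlx*. The annotation used for the gene spans below starts *Max* further downstream, at chr12:76962201, and the end of the *Max* window matched none of its transcripts. The distance in *Max* therefore depends on the annotation. ACGTG or GCGTG was found on either strand in 8 of the 11 windows, against 43.8% of all windows, and outside an E-box in 6 of the 11, against 40.4%. These matches describe letters in the windows and do not show that a factor was bound.

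In GRCm38, *Myc* (ENSMUSG00000022346) spans chr15:61985391-61990374, *Mycn* (ENSMUSG00000037169) chr12:12936093-12941914 and *Max* (ENSMUSG00000059436) chr12:76937269-76962201. *Mxi1* (ENSMUSG00000025025) lies at chr19:53310518-53375810, *Mxd1* (ENSMUSG00000001156) at chr6:86647042-86669161, *Mxd3* (ENSMUSG00000021485) at chr13:55325168-55329823 and *Mxd4* (ENSMUSG00000037235) at chr5:34173883-34187720. *Mnt* (ENSMUSG00000000282) lies at chr11:74830920-74845725, *Mga* (ENSMUSG00000033943) at chr2:119897228-119969581 and *Mlx* (ENSMUSG00000017801) at chr11:101087277-101092207. All 10 are annotated as protein coding. Exons of *Mxd3* overlap those of *Prelid1* on the opposite strand by 105 bases, and exons of *Mlx* overlap those of *Psmc3ip* on the opposite strand by 385 bases. *Prelid1* averaged 169.7 FPKM and *Psmc3ip* 15.2 FPKM, and because the strand setting of the authors' counting is not given in the sources used here, the values of *Mxd3* and *Mlx* are uncertain to that extent. Exons of *Mxd4* and *Mxi1* overlap opposite-strand genes that were at 0 in all libraries.

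On the deposited scale the most abundant transcript was that of an antagonist. *Mxd4* stood at 82.7 ± 10.2 FPKM (SD, n = 6 libraries), above 88.3% of genes tested. *Max* followed at 48.2 ± 1.498 FPKM and *Myc* at 38.3 ± 9.67 FPKM, and the libraries of *Max* and *Myc* overlapped in level, as did those of *Myc* and *Mga*. *Mga* at 29.2 ± 5.12 FPKM, *Mnt* at 27.6 ± 2.08 FPKM and *Mlx* at 26.1 ± 0.753 FPKM could not be put in order beyond their spread, and neither could *Mxd3* at 11.9 ± 0.987 FPKM and *Mxd1* at 11.2 ± 0.932 FPKM. *Mxi1* stood lowest among the expressed genes, at 2.07 ± 0.426 FPKM, below every library of *Mxd1*. *Mycn* averaged 0.0829 FPKM, between 0 and 9 reads a library. This order rests on the gene lengths behind the deposited FPKM, which were shorter than the annotated exonic length, 2612 against 8483 bases for *Mxd4* and 1823 against 2717 for *Myc*. Rescaled to all annotated exonic bases, *Max* (26.7 FPKM), *Myc* (25.7 FPKM) and *Mxd4* (25.5 FPKM) stood level, and *Mxi1* and *Mycn* remained the lowest at 1.52 and 0.0492 FPKM.

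**Figure D1:**
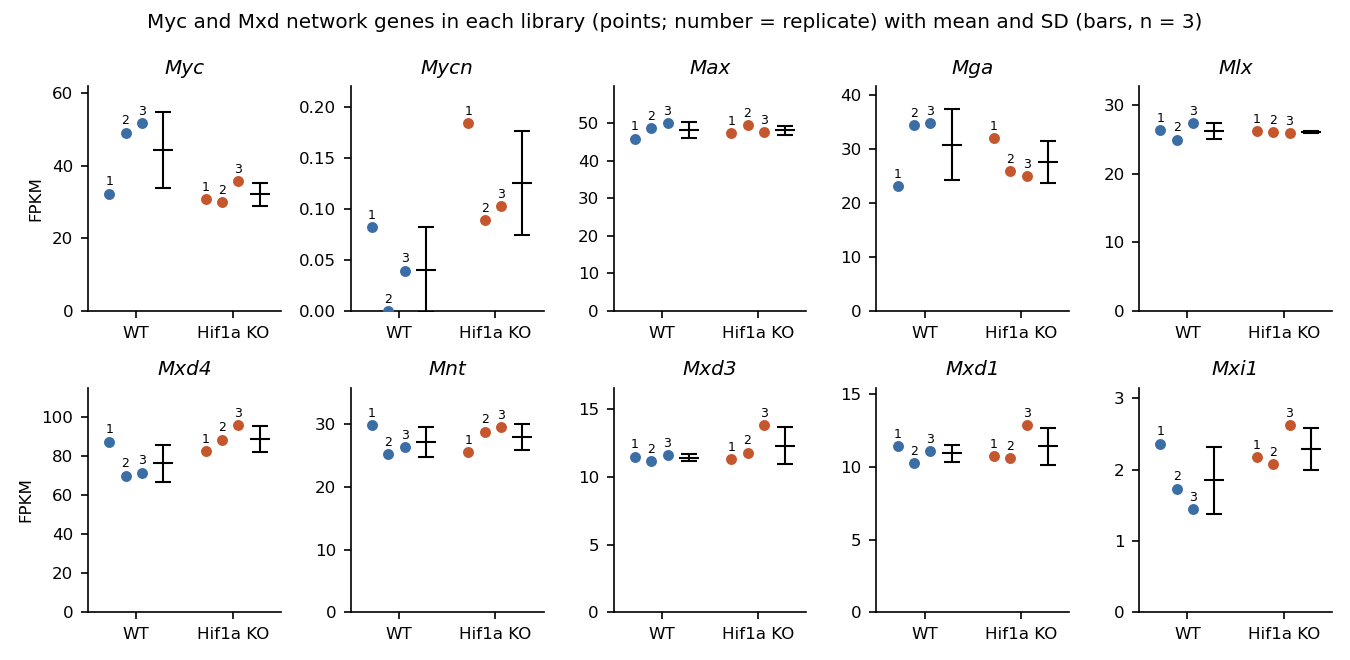
FPKM (vertical axis, from 0) of each of the 10 genes in the 3 WT libraries (blue) and the 3 Hif1a KO libraries (orange), with the replicate number above each point and the mean ± SD of the group beside the points. Myc in WT replicate 1 (32.4 FPKM) lies at the KO level (29.95 to 35.8 FPKM), Max and Mlx are nearly flat, and Mxd4 is highest in KO replicate 3 (96.1 FPKM).

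*Myc* itself was lower in the KO libraries than in WT replicates 2 and 3, but not than in WT replicate 1. Its level was 32.4, 49.2 and 51.7 FPKM in WT replicates 1, 2 and 3, and 30.8, 29.95 and 35.8 FPKM in KO replicates 1, 2 and 3. The groups overlapped, because WT replicate 1 lay among the KO libraries while the other WT libraries lay well above them. The KO mean was 0.724 of the WT mean, 32.2 ± 3.16 against 44.4 ± 10.5 FPKM (SD, n = 3 each). On the log2(FPKM + 1) scale the difference of KO minus WT was −0.43 (SE 0.178, 95% interval −0.85 to −0.0056), and *Myc* did not pass the test (limma, Benjamini-Hochberg adjusted p = 0.626). Without WT replicate 1 the difference was −0.64 and *Myc* was called (limma, Benjamini-Hochberg adjusted p = 0.0150). Across all alternatives the difference lay between −0.64 and −0.31, and the adjusted p between 0.0150 and 1. *Myc* rested on 1404 to 2777 recovered reads a library, so counting error was small beside the difference between WT libraries.

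*Pvt1*, the long noncoding RNA gene next to *Myc* on chromosome 15, was likewise highest in WT replicates 2 and 3, at a lower level. The order of the KO libraries differed, because KO replicate 3 was the highest of them for *Myc* and the lowest for *Pvt1*. It stood at 3.97, 6.79 and 6.51 FPKM in WT and at 4.29, 4.15 and 2.82 FPKM in KO, with a log2 difference of −0.49 (SE 0.210; limma, Benjamini-Hochberg adjusted p = 0.626). WT replicate 1 again lay with the KO libraries, and without it the log2 difference was −0.70 and passed the test (limma, Benjamini-Hochberg adjusted p = 0.0474). The paralogs of *Myc* were scarce. *Mycn* was listed at 0.0823, 0 and 0.0393 FPKM in WT (6, 0 and 2 reads) and at 0.184, 0.0892 and 0.103 FPKM in KO (9, 6 and 6 reads). Every KO library lay above every WT library, but a few reads decide this order. *Mycn* was too low to enter the fit across genes, and a two-sided exact permutation test on log2(FPKM + 1) gave p = 0.1, the smallest that 3 against 3 libraries allow. *Mycl*, encoding L-MYC, ranged from 1.59 to 2.15 FPKM in WT and from 1.09 to 1.73 FPKM in KO, and the groups overlapped (log2 difference −0.19, and −0.23 without WT replicate 1).

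*Max*, the common partner, was the steadiest member beside *Mlx*. Its level was 45.9, 48.7 and 49.96 FPKM in WT and 47.3, 49.5 and 47.7 FPKM in KO, with the groups interleaved. The log2 difference was −0.00069, with a 95% interval of −0.14 to 0.14 (limma, Benjamini-Hochberg adjusted p = 0.998), and its sign turned under 5 of the alternatives. The value without WT replicate 1 was −0.034. Differences inside that interval could not be resolved with these libraries.

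Among the antagonists, *Mxd4* and *Mxi1* were higher in the KO libraries than in WT replicates 2 and 3, and neither passed the test with all libraries. *Mxd4*, the most abundant of them, stood at 87.4, 70.1 and 71.6 FPKM in WT and at 82.6, 88.5 and 96.1 FPKM in KO. WT replicate 1 lay inside the KO range, and the other WT libraries lay below all KO libraries. The KO mean was 1.17 times the WT mean, 89.0 ± 6.76 against 76.4 ± 9.60 FPKM (SD, n = 3 each), with a log2 difference of 0.22 (SE 0.103, 95% interval −0.022 to 0.47; limma, Benjamini-Hochberg adjusted p = 0.626). Without WT replicate 1 the log2 difference was 0.32 and lay just outside the threshold (limma, Benjamini-Hochberg adjusted p = 0.0519).

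*Mxi1*, which encodes a SIN3-recruiting partner of MAX, was expressed at 2.37, 1.73 and 1.45 FPKM in WT and at 2.17, 2.08 and 2.63 FPKM in KO. WT replicate 1 was above KO replicates 1 and 2, and the other WT libraries were below every KO library. The log2 difference was 0.22 (SE 0.147, 95% interval −0.13 to 0.57; limma, Benjamini-Hochberg adjusted p = 0.653) and 0.34 without WT replicate 1 (limma, Benjamini-Hochberg adjusted p = 0.128). *Mxi1* rested on 188 to 440 reads a library.

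The other antagonists differed less. *Mxd1*, the founding member of the MXD family, read 11.5, 10.3 and 11.1 FPKM in WT and 10.7, 10.6 and 12.9 FPKM in KO, a log2 difference of 0.05 (95% interval −0.17 to 0.28). *Mxd3*, which unlike its relatives is often expressed in dividing cells, read 11.5, 11.1 and 11.6 FPKM in WT and 11.3, 11.8 and 13.8 FPKM in KO, a log2 difference of 0.10 (95% interval −0.12 to 0.31). In both genes KO replicate 3 was the highest library and the rest of the KO libraries lay among or near the WT libraries. *Mnt*, whose product is a widely expressed antagonist of MYC, read 29.9, 25.3 and 26.4 FPKM in WT and 25.6, 28.8 and 29.6 FPKM in KO. Its highest library was WT replicate 1 and the groups overlapped, with a log2 difference of 0.04 (95% interval −0.17 to 0.26). The limma Benjamini-Hochberg adjusted p values of *Mxd1*, *Mxd3* and *Mnt* were 0.849, 0.715 and 0.872. Without WT replicate 1 the log2 differences were 0.08, 0.10 and 0.11, and the limma Benjamini-Hochberg adjusted p values 0.625, 0.543 and 0.398. Leaving out KO replicate 3 turned the log2 difference of *Mxd1* to −0.030, and leaving out WT replicate 2 turned that of *Mnt* to −0.006.

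*Mga*, a very large MAX partner that belongs to a Polycomb complex, PRC1.6, varied more than any antagonist of similar level. It stood at 23.2, 34.4 and 34.7 FPKM in WT and at 32.0, 26.0 and 24.9 FPKM in KO. WT replicate 1 was the lowest library and KO replicate 1 was close to the higher WT libraries, so the groups overlapped widely. The log2 difference was −0.14 (SE 0.173, 95% interval −0.55 to 0.28; limma, Benjamini-Hochberg adjusted p = 0.784) and −0.32 without WT replicate 1 (limma, Benjamini-Hochberg adjusted p = 0.122). Library medians over genes of different length were set beside this. The 521 genes tested with a length of at least 5000 bases behind their FPKM had a median log2 deviation from their own mean of −0.089, 0.080 and 0.079 in WT and of 0.048, −0.038 and −0.082 in KO. The 12791 shorter genes ran in nearly the same direction at smaller size, with −0.022, 0.032 and 0.033 in WT and −0.011, −0.012 and −0.022 in KO. The length behind the FPKM of *Mga* was 4936 bases, just under that limit, so *Mga* counted among the shorter genes. *Mga* deviated by −0.30, 0.25 and 0.26 in WT and by 0.15, −0.15 and −0.20 in KO. The part of gene length in the *Mga* values was not tested.

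*Mlx* read 26.3, 25.0 and 27.3 FPKM in WT and 26.2, 26.1 and 25.9 FPKM in KO. All KO libraries lay inside the WT range, with a log2 difference of −0.0076 (95% interval −0.15 to 0.14; limma, Benjamini-Hochberg adjusted p = 0.972) whose sign turned under median-ratio scaling and without WT replicate 3, and which was −0.0045 without WT replicate 1. Its partner gene *Mlxip*, not among the 10, read 22.8, 17.4 and 17.7 FPKM in WT and 23.4, 22.8 and 23.4 FPKM in KO. The groups did not overlap, although WT replicate 1 missed the lowest KO library only narrowly. The log2 difference of *Mlxip* was 0.26 (SE 0.108; limma, Benjamini-Hochberg adjusted p = 0.626), and 0.38 without WT replicate 1, which passed the test (limma, Benjamini-Hochberg adjusted p = 0.0181). Exons of *Mlxip* overlap those of an antisense gene by 267 bases, which averaged 0.184 FPKM. *Mlxipl*, encoding the related ChREBP, was listed at 0.109 FPKM or less in every library. *Txnip*, a glucose-responsive target of MondoA and MLX that restrains glucose uptake, ranged from 63.3 to 70.4 FPKM in WT and from 67.7 to 75.0 FPKM in KO, a log2 difference of 0.07 (SE 0.071; limma, Benjamini-Hochberg adjusted p = 0.735), or 0.09 without WT replicate 1. *Arrdc4*, the other target listed, stood at 0.211 FPKM or less.

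Over the whole network, 9 of the 10 genes were tested, having a mean of at least 0.5 FPKM over all 6 libraries, and 0 were called, as were 0.0% of all genes tested. At an unadjusted p under 0.05, 1 of the 9 was lower in KO (*Myc*) and 0 were higher, against 4.5% of all genes lower, 2.48% higher and 6.98% in either direction. In 0 of the 9 were the groups free of overlap, against 10.1% of all genes (6.03% with KO lower and 4.06% with KO higher). The log2 difference was positive in 5 and negative in 4, with a median of 0.04, beside −0.03 over all genes tested, of which 57.9% were negative. Under median-ratio scaling of the libraries 2 of the 9 were negative, *Myc* and *Mga*, beside 49.4% of all genes. WT replicate 1 lay below both other WT libraries in 3 of the 9 and above both in 4, against 51.6% and 33.3% of all genes. All KO libraries lay below WT replicates 2 and 3 in 2 (*Myc* and *Mga*) and above them in 2 (*Mxd4* and *Mxi1*), against 32.0% and 18.4% of all genes. Without WT replicate 1, 1 of the 9 was called (*Myc*, lower), against 9.4% of all genes, 5.75% lower and 3.64% higher. Counts over 9 genes are coarse, and none of these sets the network apart from all genes.

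**Figure D2:**
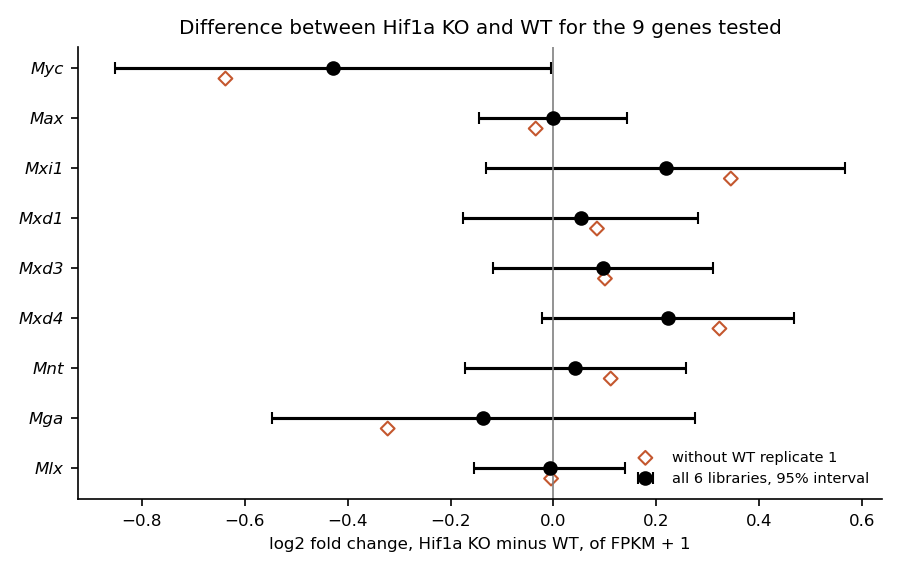
Log2 difference of KO minus WT on FPKM + 1 (horizontal axis) for the 9 genes tested, from all 6 libraries (black, with 95% intervals from limma) and without WT replicate 1 (open diamonds). Myc is farthest below 0 (−0.43, and −0.64 without WT replicate 1), Mxd4 and Mxi1 are farthest above it (0.22 each), and Max and Mlx lie on it.

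Because MYC and its antagonists share MAX, their transcripts were also set against each other within each library, as a description with no test. The summed level of *Mxi1*, *Mxd1*, *Mxd3*, *Mxd4* and *Mnt* was 142.6, 118.5 and 122.1 FPKM in WT and 132.4, 141.8 and 155.0 FPKM in KO. *Myc* over this sum was 0.227, 0.415 and 0.424 in WT and 0.232, 0.211 and 0.231 in KO. The KO libraries were tightly grouped, at a mean ratio of 0.225 ± 0.0118 against 0.355 ± 0.111 in WT (SD, n = 3 each), and WT replicate 1 lay among them. The mean log2 ratio differed by −0.61, with an SD between libraries of 0.512 in WT and 0.077 in KO on the log2 scale. Most of the WT spread was WT replicate 1 against the other WT libraries, and the difference was not tested. Taken on recovered reads in place of FPKM, the difference was −0.62. *Myc* over *Max* was 0.705, 1.01 and 1.04 in WT and 0.650, 0.606 and 0.751 in KO, again overlapping through WT replicate 1. *Mxd4* over *Max* was 1.90, 1.44 and 1.43 in WT and 1.75, 1.79 and 2.02 in KO. *Mxd4* made up 0.613, 0.591 and 0.587 of the antagonist sum in WT and 0.624, 0.624 and 0.620 in KO. This share did not overlap between the groups, but its means, 0.597 ± 0.0140 and 0.623 ± 0.00229 (SD, n = 3 each), were close. Transcript ratios depend on the gene lengths used and do not measure protein.

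**Figure D3:**
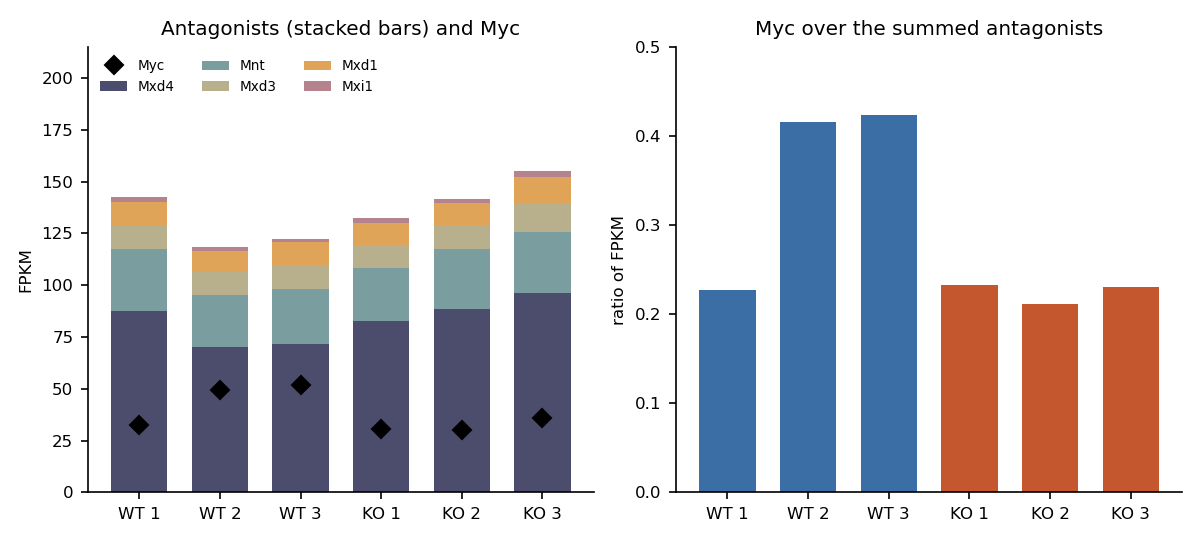
Left, FPKM of the 5 antagonists stacked in each library, with Myc as black diamonds. Right, the ratio of Myc to the antagonist sum, which is 0.415 and 0.424 in WT replicates 2 and 3 and between 0.211 and 0.232 in WT replicate 1 and the 3 KO libraries.

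Genes that MYC is known to activate were examined as 32 members of a list covering polyamine and nucleotide synthesis, ribosome production, translation and mitochondrial chaperones. The list was written from general knowledge with earlier results of these data known, so its direction is not independent evidence. All 32 were tested and all 32 had a negative log2 difference, from −0.39 to −0.041 with a median of −0.18, where 57.9% of all genes were negative. All 32 stayed negative under median-ratio scaling and with voom on recovered reads, and 30 did without KO replicate 2. None was called with all libraries, and 8 of the 32 had an unadjusted p under 0.05, all lower, beside 4.5% of all genes. The groups did not overlap in 9 (28.1%, beside 6.03%), and without WT replicate 1, 9 were called lower (28.1%, beside 5.75%). *Odc1*, the rate-limiting enzyme of polyamine synthesis and a classical MYC target, read 96.8, 122.8 and 123.4 FPKM in WT and 93.5, 80.5 and 85.8 FPKM in KO. Every KO library was below every WT library, with WT replicate 1 nearest to them, and the log2 difference was −0.39 (SE 0.111; limma, Benjamini-Hochberg adjusted p = 0.626), or −0.51 without WT replicate 1 (limma, Benjamini-Hochberg adjusted p = 0.0172). *Srm*, encoding spermidine synthase, *Mrto4*, a ribosome assembly factor, and *Eif4e*, which binds the mRNA cap, had log2 differences of −0.31, −0.25 and −0.19, each without overlap of the groups. They were, without WT replicate 1, −0.41, −0.30 and −0.22, and the first 2 passed the test (limma, Benjamini-Hochberg adjusted p = 0.0453, 0.0331 and 0.0941). *Ncl*, encoding nucleolin, and *Cdk4*, a cyclin-dependent kinase, differed by −0.12 and −0.14 and overlapped (−0.13 and −0.19 without WT replicate 1). As with *Myc*, WT replicate 1 was below both other WT libraries, in 29 of the 32 (90.6%, beside 51.6% of all genes).

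The list of genes that MYC is known to repress did not share a direction. Of 7 listed, 5 were tested, 2 with a negative and 3 with a positive log2 difference (median 0.03). *Cdkn1a*, encoding the cell cycle inhibitor p21, read 21.6, 122.5 and 109.6 FPKM in WT and 26.7, 20.4 and 16.9 FPKM in KO. WT replicate 1 lay among the KO libraries and the other WT libraries were far above, giving a log2 difference of −1.62 (SE 0.622; limma, Benjamini-Hochberg adjusted p = 0.626) and of −2.41 without WT replicate 1 (limma, Benjamini-Hochberg adjusted p = 0.0030). As for *Myc*, WT replicates 2 and 3 were the highest libraries. *Ndrg1*, a stress-responsive gene, read 13.9, 8.47 and 9.31 FPKM in WT and 13.6, 14.3 and 11.9 FPKM in KO, a log2 difference of 0.33, and of 0.53 without WT replicate 1 (limma, Benjamini-Hochberg adjusted p = 0.0293). *Cdkn1b*, encoding the inhibitor p27, differed by 0.14, and *Cdkn2b*, encoding p15, by −0.22 (0.19 and −0.41 without WT replicate 1).

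Partners and cofactors of the network gave small differences. Each count of negative genes below is to be read beside 57.9% of all genes, or 49.4% under median-ratio scaling. Of 10 MYC coactivators and partners, all tested, 9 had a negative log2 difference (median −0.13, and 7 under median-ratio scaling), beside 57.9% of all genes, and 2 of the 10 had an unadjusted p under 0.05, both lower, beside 4.5% of all genes. These were *Ruvbl2*, an ATPase of chromatin remodelling complexes, at −0.25 without overlap of the groups, and *Kat2a*, a histone acetyltransferase, also at −0.25, and both were called lower without WT replicate 1 (limma, Benjamini-Hochberg adjusted p = 0.0362 for each), beside 5.75% of all genes. *Wdr5*, which docks MYC on chromatin, differed by −0.18, and by −0.25 without WT replicate 1. Of 14 subunits of the SIN3 and NCoR corepressors that MXD proteins recruit, 13 were negative (median −0.10, and 11 under median-ratio scaling), 0 had an unadjusted p under 0.05, and 1 was called without WT replicate 1, *Rbbp7*, a histone-binding subunit, at −0.35 (limma, Benjamini-Hochberg adjusted p = 0.0254). That is 7.14% of the list, near the 5.75% of all genes called lower, and so is no result about the list. *Sin3b*, a scaffold gene, differed by −0.12, and by −0.16 without WT replicate 1. With all libraries the groups did not overlap in *Sin3b* and *Brms1*, 2 of the 14 (14.3%, beside 6.03% of all genes with KO lower). Of 10 subunits of PRC1.6, the complex of MGA, 9 were negative (median −0.11, and 7 under median-ratio scaling) and 0 had an unadjusted p under 0.05, with *L3mbtl2* at −0.17 and *Tfdp1* at −0.14 (−0.25 and −0.18 without WT replicate 1). *Wdr5* is counted in this list as well as among the coactivators. Of 10 regulators of MYC protein turnover, 5 were negative and 5 positive (median −0.0089), with *Fbxo32*, encoding an F-box ubiquitin ligase subunit, at 0.23 and *Usp28*, a deubiquitinase that stabilizes MYC, at 0.13 (0.24 and 0.23 without WT replicate 1). None of the genes in these lists was called with all libraries.

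**Figure D4:**
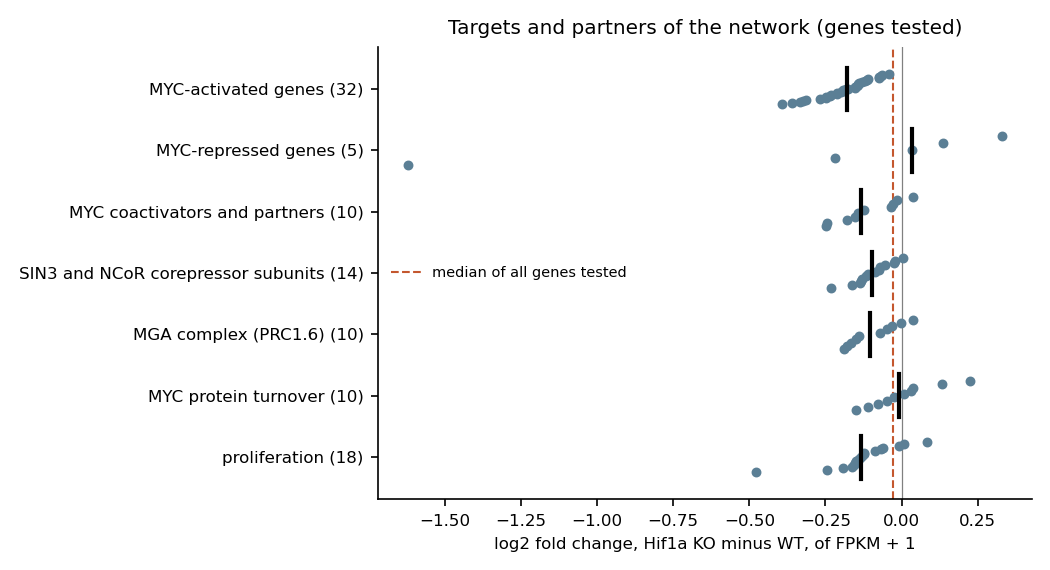
Log2 difference of KO minus WT (horizontal axis) of each tested gene (points) in 7 lists of targets and partners, with the median of each list (black bars) and of all genes tested (dashed line, −0.03). All 32 MYC-activated genes lie below 0 (median −0.18), and Cdkn1a in the MYC-repressed list is far to the left (−1.62). Wdr5 appears in both the coactivator and the PRC1.6 list.

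Proliferation genes and markers of other cell types were read in the same libraries. In bulk samples fewer cells of a type and less RNA per cell cannot be told apart. Of 18 proliferation genes, 16 were negative (median −0.13), beside 57.9% of all genes, and 12 were without KO replicate 3, beside 56.3%. An unadjusted p under 0.05 was reached by 1, *Tyms*, encoding thymidylate synthase, at −0.48, which is 5.56% of the list beside 4.5% of all genes. *Tyms* (−0.71) and *Rrm2*, a ribonucleotide reductase subunit (−0.36), were called without WT replicate 1 (limma, Benjamini-Hochberg adjusted p = 0.0056 and 0.0269), 11.1% of the list beside 5.75% of all genes called lower. *Prdm1*, a regulator of plasma cell differentiation, was lowest in WT replicates 2 and 3, where *Myc* was highest, at 40.0, 17.1 and 16.7 FPKM in WT and at 41.4, 29.2 and 55.9 FPKM in KO. The 6 plasma cell markers summed to 715.4, 429.4 and 398.8 FPKM in WT and to 681.2, 505.2 and 905.9 FPKM in KO, and none was at 0. The 11 macrophage markers summed to between 74.1 and 171.1 FPKM in WT and between 67.6 and 79.3 FPKM in KO. *Fcgr1* was at 0 in every KO library, and at only 0.0505, 0.122 and 0 FPKM in WT. *Adgre1* made up much of the macrophage sum, and without it the other 10 summed to 14.3, 80.0 and 38.4 FPKM in WT and to 6.83, 9.62 and 12.1 FPKM in KO, where the groups did not overlap. *Lyz2* read 6.18, 58.3 and 26.2 FPKM in WT and 0.5996, 2.23 and 3.70 FPKM in KO, without overlap of the groups. Its log2 difference, −2.97, was the lowest of all genes tested (SE 0.766; limma, Benjamini-Hochberg adjusted p = 0.626). Without WT replicate 1 it was −3.79 and passed the test (limma, Benjamini-Hochberg adjusted p = 0.0135). The 8 neutrophil markers summed to at most 0.58 FPKM in KO, with *S100a8*, *S100a9*, *Ngp*, *Elane* and *Mpo* at 0 there. In WT replicates 2 and 3 each of these genes was at 0.211 FPKM or less as well. The 6 dendritic cell markers summed to between 16.2 and 17.9 FPKM in WT and between 12.04 and 12.95 FPKM in KO, also without overlap. All 4 tested were negative. *Siglech* differed by −0.68 without overlap of the groups (limma, Benjamini-Hochberg adjusted p = 0.626). *Zbtb46* differed by −0.44, and by −0.68 without WT replicate 1 (limma, Benjamini-Hochberg adjusted p = 0.0190). *Clec9a* was at 0 in KO, and at only 0.0589, 0 and 0 FPKM in WT. The 8 T and NK cell markers summed to at most 1.49 FPKM. The part of these cell type and proliferation differences in the values of *Myc*, its targets and its antagonists was not tested.

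The genes whose levels followed those of *Myc* and *Mxi1* most closely were sought among 9275 genes with a mean of at least 5 FPKM, by Pearson's r of log2(FPKM + 1) over the 6 libraries, as a description. For *Myc* these were *Chst10* (r = 0.998), *Mrpl13* (0.996), *Dcxr* (0.996), *AW209491* (0.996) and *Pon3* (0.995). *Chst10* read 6.61, 10.4 and 10.5 FPKM in WT and 6.06, 6.02 and 7.43 FPKM in KO, with the same high WT replicates 2 and 3. For *Mxi1* they were *Psmd10* (0.997), *Ighv14-1* (0.995), *Slc35c1* (0.994), *Derl3* (0.992) and *Pdia4* (0.992), of which *Derl3* and *Pdia4* act in the endoplasmic reticulum. *Pdia4* read 337.3, 267.8 and 244.4 FPKM in WT and 312.7, 293.7 and 361.8 FPKM in KO, lowest in WT replicate 3, as *Mxi1* was. The genes were the best of a search over all 9275, on 6 points that share their libraries with *Myc* and *Mxi1*.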

How the data were processed

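Per the study's methods, the authors aligned paired-end reads to mm10 (GRCm38) with TopHat, counted reads per gene with HTSeq and deposited FPKM, 1 column per library. Strand and multi-mapping settings and the annotation release are not given in the sources used here. Gene symbols came from GENCODE (46488 of 46983 identifiers). The rule for the 10 genes uses no measured value, but they and all lists were chosen with earlier results of these data known. The 13312 genes averaging 0.5 FPKM or more were compared on log2(FPKM + 1), a pseudocount that understates changes of low genes, with limma 3.58.1 in R 4.3.3 (mean-variance trend, Benjamini-Hochberg adjustment, threshold 0.05). The authors used a count model, but the deposited unit is FPKM. FPKM of every expressed gene (25717) were whole multiples of what 1 read is worth, within a tolerance of 0.005 reads, which gave depths and reads for an alternative with voom. For each gene the shortest length giving whole reads was taken, which says little for genes seen in few libraries. The recovered length equalled the annotated one in 49.7% of 9775 single-transcript genes with reads. The limma comparison was tested on simulated log2 values whose spread was drawn from the fit itself. Genes named were all 10, up to 4 of each list by smallest p, a fixed set of relatives and targets, and the 5 genes most like *Myc* and *Mxi1*. Overlapping genes and further cell type markers (such as those at 0 in KO) were named after their values were seen. A further B-cell marker is not reported here.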

Additional observations from a re-analysis of the deposited data

How the results depend on the processing

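The limits are the 3 libraries per group and WT replicate 1, which lay with the KO libraries for *Myc*. It lay below the other WT libraries for 29 of 32 MYC-activated genes, and also for 17 of 18 proliferation genes. Calls without that library follow an exclusion chosen on these same data. Low genes such as *Mycn* are limited by read number. The count of genes called was 0 with all libraries and under every setting that kept all 6, voom on recovered reads included, and between 0 and 1251 when each library was left out in turn (1251 without WT replicate 1, 1 without KO replicate 1). Of the network genes, between 0 and 1 were called when a library was left out, *Myc* without WT replicate 1. The median log2 difference of the network genes (0.043) ranged from 0.004 to 0.092 on leaving out a library, that of the SIN3 and NCoR subunits (−0.098) from −0.152 to −0.068 and was −0.063 under median-ratio scaling, and that of the MYC-repressed genes (0.033) from −0.048 to 0.170. The sign of *Max* turned under median-ratio scaling (0.033), without WT replicates 2 (0.007) or 3 (0.025) and without KO replicates 1 (0.011) or 3 (0.006), and leaving out a library gave from −0.034 to 0.025. The sign of *Mxd1* turned without KO replicate 3 (leaving out a library gave −0.030 to 0.098), that of *Mnt* without WT replicate 2 (−0.006 to 0.111), and that of *Mlx* without WT replicate 3 (−0.040 to 0.022) and under median-ratio scaling (0.026). The cause was not tested. The other 616 results under alternatives kept their direction and side of the threshold, stayed within the spread or fell to 0. *S100a9* and *Ngp* fell to a log2 difference of 0 without WT replicate 1, from −1.46 and −0.80 with all libraries. Of the 40 single genes followed through the alternatives, 16 passed the threshold without WT replicate 1 that missed it with all libraries. Same-numbered WT and KO libraries did not deviate together (r of −0.0987, 0.139 and −0.276), so the numbers were not taken to pair them, and with the replicate number as a block 0 genes and 0 network genes were called.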
